A study of Mus musculus with 24 samples.

Results

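The genes described here are 8 protein-coding genes of mouse chromosome 15, *Atpsckmt*, *Cpq*, *Matn2*, *Spag1*, *Dpys*, *Zfpm2*, *Sybu* and *Mal2*, out of 45706 genes with counts. They lie in this order between positions 31601852 and 54602847 of GRCm38, and they were picked by name because their levels differed between *iRhom2-/-* and *WT* mice at 8 and 10 weeks. RNA of the olfactory epithelium (OE) of untreated mice was sequenced in bulk. The *WT* and *iRhom2-/-* mice of 8 and 10 weeks (3 per genotype and age) can each be tied to a column of counts, and 3 of these 12 mice are female (*WT* mouse 3 of each age and *iRhom2-/-* mouse 3 of 10 weeks). A further 12 columns, numbered 7 to 12 in each genotype, give the genotype but no single mouse or age. The 12 labels not matched to a column are all of male mice of 5 and 30 weeks. They share 1 core reference number, whose meaning the labels do not give, while the mice of 8 and of 10 weeks each have their own. By elimination libraries 7 to 12 come from these mice of 5 and 30 weeks, with the age of each library unknown.

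The *iRhom2-/-* mice carry the Rhbdf2 tm1b(KOMP)Wtsi allele, in which LacZ is expressed from the gene's own promoter in place of iRhom2, and they are of a mixed 129Sv and C57BL/6 background. The labels give the strain of *WT* and *iRhom2-/-* mice alike as mixed, and do not say whether the genotypes were littermates. Mice of such a background carry chromosome segments of either parental strain, and a stretch of a chromosome is inherited together until a crossover breaks it. Where the parental strains differ in sequences that control nearby genes, each gene of such a stretch can be higher or lower on its own account, and the mice then fall on a few levels rather than on a continuous range. The comparisons below ask whether the 8 genes show such levels, whether the same mice share them across the genes, and whether the differences recur in libraries 7 to 12, which the choice of the genes did not use.

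The 24 libraries held 25333822 to 48660394 counts on genes, and libraries 7 to 12 tended to be shallower (25333822 to 38296560) than the mice of 8 and 10 weeks (33812446 to 48660394). Levels are counts per 1000000 after TMM scaling (CPM), and a count of 3, the limit that a count of 0 allows, covers counting error only. *Rhbdf2*, the gene of iRhom2 on chromosome 11, was at 19.3 to 24.9 CPM in the 12 *WT* libraries and at 7.16 to 13.4 in the 12 *iRhom2-/-* libraries, so each library matched its labelled genotype. In libraries 7 to 12 it was at 22.2 ± 1.79 CPM in *WT* (SD, n = 6) and at 10.1 ± 1.98 in *iRhom2-/-* (SD, n = 6), which is -1.15 on the log2 scale (standard error, SE, 0.13; adjusted p = 0.000801, edgeR), with 6 of 6 *iRhom2-/-* libraries lower. Reads on *Rhbdf2* remained in every *iRhom2-/-* library; per the study the allele still expresses exons 1 and 2. In *iRhom2-/-* mouse 2 of 10 weeks, 13.6% of all counts fell on the single gene *Bpifb9b*. *iRhom2-/-* library 9 stood apart from the other *iRhom2-/-* libraries at several of the 8 genes. The fold changes of *Spag1*, *Dpys*, *Atpsckmt*, *Cpq* and *Mal2* are therefore given with and without it. The correlations and the fold changes of other genes are given with it included.

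Markers of cell types set libraries 7 to 9 apart from libraries 10 to 12, and the other way round in each genotype. The summed level of 6 markers of immature OSNs was 616, 689.5 and 751 CPM in *WT* libraries 7, 8 and 9 and 319.8 to 328 in *WT* libraries 10 to 12. In *iRhom2-/-* it was 325, 355 and 274 CPM in libraries 7, 8 and 9 and 744 to 862 in libraries 10 to 12. The same division was seen with 9 markers of fibroblasts, cartilage and bone, at 6495 to 6658 CPM in *WT* libraries 7 to 9 and 2153 to 2656 in 10 to 12, against 1444 to 2177 in *iRhom2-/-* libraries 7 to 9 and 5510 to 9564 in 10 to 12. Summed markers of mature OSNs, sustentacular cells and leukocytes also divided these libraries, in the opposite direction. In *WT*, those of mature OSNs were at 9754 to 11100 CPM in libraries 7 to 9 and 13060 to 14190 in 10 to 12. In *iRhom2-/-* they were at 13370 to 14320 and at 9652 to 11610. Each genotype thus holds 3 libraries with high and 3 with low levels of each of these marker sums. Like-numbered libraries of the genotypes are not alike in them. By elimination libraries 7 to 12 mix mice of 5 and 30 weeks in each genotype, with the age of each library unknown. Age therefore cannot be told apart from this division.

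The genes share a position, not a function. In *WT* OE, per 1000 bases of exon, *Dpys* was the highest of them (mean 17.4 CPM per kb, range 11.2 to 24.96 over 12 *WT* libraries) and *Zfpm2* the lowest (mean 0.0736, range 0.047 to 0.113). Between them came *Mal2* (10.46 CPM per kb), *Cpq* (7.13), *Matn2* (4.61), *Atpsckmt* (4.34), *Sybu* (2.10) and *Spag1* (0.99). The ranges of the libraries overlapped for *Dpys* and *Mal2* and for *Matn2* and *Atpsckmt*, and each of the other neighbours in this order did not overlap with the next over the 12 *WT* libraries. In bulk OE, fewer cells of a type and less RNA per cell cannot be told apart.

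RefSeq promoter windows on GRCm38.p6 were at hand for 1 of the 8 genes, *Atpsckmt*, and for 1 of the 5 lower neighbouring genes with the smallest p in libraries 7 to 12, *Snhg18*, a non-coding RNA gene and the next tested gene along the block. The 250 bases before each start are shown because both genes were lower in *iRhom2-/-* libraries and lie at the same end of the block. Capitals mark GGGCGG or its reverse complement CCGCCC, the GC box bound by Sp1 family factors, searched on both strands.
Atpsckmt, chr15:31601866-31602115, plus strand: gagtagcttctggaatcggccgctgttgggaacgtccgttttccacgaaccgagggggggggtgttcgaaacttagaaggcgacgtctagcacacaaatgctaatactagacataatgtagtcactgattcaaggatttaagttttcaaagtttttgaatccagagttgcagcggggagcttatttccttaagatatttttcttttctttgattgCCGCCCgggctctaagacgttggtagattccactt
Snhg18, chr15:32244663-32244912, minus strand: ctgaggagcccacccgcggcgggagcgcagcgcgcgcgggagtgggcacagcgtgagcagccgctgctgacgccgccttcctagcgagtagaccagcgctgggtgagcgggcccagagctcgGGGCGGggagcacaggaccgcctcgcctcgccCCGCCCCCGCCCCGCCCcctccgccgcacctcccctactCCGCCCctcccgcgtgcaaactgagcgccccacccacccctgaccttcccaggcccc
The window of *Atpsckmt* held 1 GC box and that of *Snhg18* held 5, and of 32851 windows of this length 32.7% held at least 1. These are the letters of the reference strain; the sequence that the mice carry was not read here. The window of *Atpsckmt* begins just inside the gene as GENCODE draws it, which starts at 31601852.

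At 8 and 10 weeks, the comparison that chose them, 4 of the genes were lower in *iRhom2-/-* mice (*Atpsckmt*, *Cpq*, *Matn2*, *Mal2*) and 4 were higher (*Spag1*, *Dpys*, *Zfpm2*, *Sybu*). For each of the 8, no *iRhom2-/-* mouse lay within the range of the 6 *WT* mice, against 0.589% of the 20030 genes tested at those ages, and the threshold was passed by 0.33% of them as higher and 0.2% as lower; since the genes were picked on these mice, nothing is read from this. In libraries 7 to 12 the direction was the same for 8 of 8 genes (the share over all genes is not given here). Of these, 2 passed the threshold (adjusted p under 0.1 over all genes, edgeR's quasi-likelihood test), against 1.07% of 18481 genes tested. Both, *Spag1* and *Dpys*, rose, as 0.649% of all genes did, and none of the 8 fell past it, against 0.422% of all genes. The genotypes were fully separated in libraries 7 to 12 at 1 of 8 genes, *Spag1*, against 1.68% of all genes. At an unadjusted p under 0.05 there were 6 of 8, against 14.2% of all genes. Each of the 8 differences was smaller in libraries 7 to 12 than at 8 and 10 weeks. The genes were picked for their differences at 8 and 10 weeks, and such differences tend to be smaller in other libraries. Nothing is read from this. The difference between the sets was not tested.

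**Figure D1:**
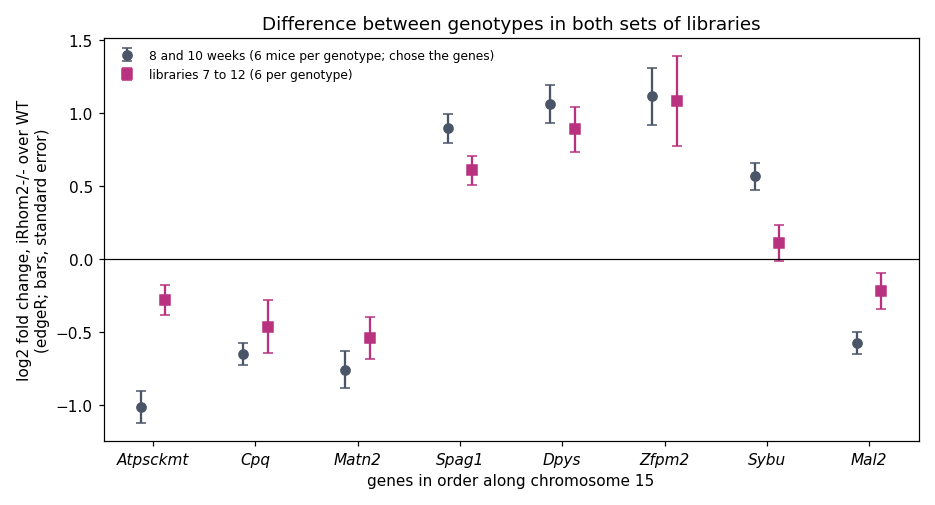
Log2 fold change of each of the 8 genes, in order along the chromosome, at 8 and 10 weeks (circles) and in libraries 7 to 12 (squares), with the standard error from edgeR. The direction is the same in both sets for all 8 genes, from -1.02 for *Atpsckmt* to 1.11 for *Zfpm2* at 8 and 10 weeks and from -0.54 for *Matn2* to 1.08 for *Zfpm2* in libraries 7 to 12.

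*Spag1* encodes an assembly factor of the dynein arms that move cilia. At 8 weeks its level was 10.49, 11.8 and 12.1 CPM in the *WT* mice and 24.8, 20.1 and 24.4 in the *iRhom2-/-* mice. At 10 weeks it was 9.13, 10.96 and 9.91 in *WT* mice and 14.7, 19.7 and 16.5 in *iRhom2-/-* mice. The *iRhom2-/-* mice were above all *WT* mice at both ages, and those of 8 weeks were above those of 10 weeks. In libraries 7 to 12 the *WT* level ranged from 9.61 to 13.4 CPM (median 11.02) and the *iRhom2-/-* level from 15.3 to 20.2 (median 16.8). The 6 *iRhom2-/-* libraries were all above the 6 *WT* libraries, with library 9 the lowest of them. The mean rose from 11.4 ± 1.33 CPM (SD, n = 6) to 17.3 ± 1.85 (SD, n = 6), a log2 fold change of 0.61 (SE 0.10, adjusted p = 0.0305, edgeR). Without library 9 it was 0.64 (adjusted p = 0.0265, edgeR), and *Spag1* stayed past the threshold without any 1 of the 12 libraries (highest adjusted p = 0.0816, edgeR).

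*Dpys* encodes dihydropyrimidinase, an enzyme of pyrimidine breakdown. At 8 weeks it was at 41.8, 55.99 and 60.9 CPM in *WT* mice and at 136, 133 and 128 in *iRhom2-/-* mice. At 10 weeks it was at 84.8, 80.3 and 93.4 in *WT* mice and at 122, 149 and 175 in *iRhom2-/-* mice. The *WT* mice of 10 weeks were above those of 8 weeks without overlap. At this gene the *WT* level itself thus moved with age or with the core reference number of the labels, which cannot be told apart. Summed markers of some cell types also differed between these *WT* mice, in both directions. Those of sustentacular cells were at 28920 to 32030 CPM at 10 weeks and 15800 to 19330 at 8 weeks. Those of basal and precursor cells were at 187 to 195 and 217 to 317. The part of these markers in the level of *Dpys* was not tested. The *WT* level in libraries 7 to 12 ranged from 52.2 to 72.4 CPM (median 60.8). The *iRhom2-/-* libraries 7, 8, 10, 11 and 12 were at 134, 133, 117, 118 and 111 CPM, and library 9 was at 63.2. Thus 5 of the 6 *iRhom2-/-* libraries lay far above every *WT* library, while library 9 lay in the middle of the *WT* range. With all libraries the log2 fold change was 0.89 (SE 0.16, adjusted p = 0.0372, edgeR), and without library 9 it was 1.01 (adjusted p = 0.000253, edgeR).

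*Zfpm2* encodes FOG2, a cofactor of GATA transcription factors, and was barely expressed in OE. Among mice of 8 weeks it was at 0.885, 0.877 and 0.809 CPM in *WT* mice and at 1.98, 1.496 and 1.32 in *iRhom2-/-* mice. Among those of 10 weeks it was at 0.477, 0.538 and 0.531 in *WT* mice and at 1.22, 1.44 and 1.26 in *iRhom2-/-* mice. The counts behind these levels were 15 to 40 per *WT* mouse and 39 to 95 per *iRhom2-/-* mouse. Over libraries 7 to 12 the *WT* level ranged from 0.448 to 1.07 CPM (median 0.688) and the *iRhom2-/-* level from 0.666 to 2.02 (median 1.58). Only library 10 of the 6 *iRhom2-/-* libraries lay within the *WT* range, and library 9, at 1.44 CPM, lay above it. The log2 fold change was 1.08 (SE 0.31) and missed the threshold (adjusted p = 0.158, edgeR). Without library 10 it was 1.23 (adjusted p = 0.0981, edgeR). Of the 12 fits without 1 library, only 1 passed (highest adjusted p = 0.315, edgeR). With DESeq2 over all libraries it passed (adjusted p = 0.0367), but DESeq2 called more genes at large than edgeR did.

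*Sybu* encodes syntabulin, which links vesicles to the kinesin-1 motor in axons. At 8 weeks it was at 12.8, 18.1 and 13.7 CPM in *WT* mice and at 22.9, 23.2 and 23.8 in *iRhom2-/-* mice. At 10 weeks it was at 15.5, 14.8 and 13.3 in *WT* mice and at 21.3, 19.4 and 19.5 in *iRhom2-/-* mice. In libraries 7 to 12 the *WT* level ranged from 15.2 to 19.5 CPM (median 18.3). The *iRhom2-/-* libraries 7, 8, 9, 10, 11 and 12 were at 22.8, 17.6, 22.3, 16.2, 14.03 and 20.9 CPM. Of these, 3 lay above the *WT* range, 2 within it and 1 below it, so the *iRhom2-/-* libraries spread to both sides of *WT*. Between genotypes it differed by 0.11 on the log2 scale (SE 0.12, adjusted p = 0.749, edgeR). *A930017M01Rik*, a pseudogene on the opposite strand, overlaps *Sybu*; the library kit marks strand, but how the strand was set in counting is not given in the sources used here. At 0.789 to 0.966 CPM in *iRhom2-/-* libraries against 0.208 to 0.736 in *WT*, it did not overlap between genotypes, and it missed the threshold (log2 fold change 0.88, SE 0.27, adjusted p = 0.186, edgeR).

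Among the genes that were lower at 8 and 10 weeks, *Atpsckmt*, a mitochondrial methyltransferase that modifies the c subunit of ATP synthase, had the greatest drop. At 8 weeks it was at 23.4, 32.8 and 30.2 CPM in *WT* mice and at 11.9, 14.3 and 13.8 in *iRhom2-/-* mice. At 10 weeks it was at 17.5, 22.04 and 18.9 in *WT* mice and at 10.6, 8.78 and 11.3 in *iRhom2-/-* mice. Over libraries 7 to 12 the *WT* level ranged from 18.5 to 24.6 CPM (median 21.5). The *iRhom2-/-* libraries 7, 8 and 9 were at 19.2, 18.2 and 21.6 CPM, and libraries 10, 11 and 12 at 16.4, 15.9 and 14.5. Of the 6, libraries 7 and 9 were within the *WT* range and the other 4 below it. The log2 fold change was -0.28 (SE 0.10, adjusted p = 0.257, edgeR), and -0.35 without library 9 (adjusted p = 0.152, edgeR).

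*Cpq* encodes carboxypeptidase Q, a peptidase that splits dipeptides. Among mice of 8 weeks it was at 38.6, 30.1 and 30.3 CPM in *WT* mice and at 21.2, 19.04 and 19.99 in *iRhom2-/-* mice. Among those of 10 weeks it was at 38.8, 40.2 and 44.2 in *WT* mice and at 29.02, 27.9 and 24.4 in *iRhom2-/-* mice. The *WT* level in libraries 7 to 12 ranged from 29.4 to 39.3 CPM (median 34.1). The *iRhom2-/-* libraries 7, 8 and 9 were at 31.3, 29.2 and 36.1 CPM, and libraries 10, 11 and 12 at 18.3, 16.2 and 19.4. Thus 3 *iRhom2-/-* libraries sat at the level of *WT* or at its lower edge, and 3 sat well below it. The gap between them, from 19.4 to 29.2 CPM, was 0.59 on the log2 scale, and the next widest gap among the 12 libraries was 0.18. Between genotypes it differed by -0.47 on the log2 scale (SE 0.18, adjusted p = 0.277, edgeR), and by -0.60 without library 9 (adjusted p = 0.151, edgeR). These are the *iRhom2-/-* libraries with low (7 to 9) and high (10 to 12) levels of immature OSN and connective tissue markers. The *WT* libraries that differ in those markers overlapped at *Cpq* (29.4 to 38.6 CPM in 7 to 9, 32.8 to 39.3 in 10 to 12). The part of the markers, or of age, in the levels of *Cpq* was not tested.

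*Mal2* encodes a membrane protein of lipid rafts that serves transcytosis in epithelial cells. At 8 weeks it was at 28.04, 31.4 and 30.5 CPM in *WT* mice and at 18.8, 17.1 and 17.1 in *iRhom2-/-* mice. At 10 weeks it was at 34.3, 34.7 and 34.2 in *WT* mice and at 25.2, 26.97 and 26.02 in *iRhom2-/-* mice. The *WT* level in libraries 7 to 12 ranged from 26.6 to 34.5 CPM (median 28.8). The *iRhom2-/-* libraries 7, 8 and 9 were at 24.8, 29.5 and 33.9 CPM, and libraries 10, 11 and 12 at 22.3, 20.3 and 21.4. As with *Cpq*, libraries 10, 11 and 12 were the lowest of all 12, and libraries 8 and 9 lay within the *WT* range. Between genotypes it differed by -0.22 on the log2 scale (SE 0.12, adjusted p = 0.438, edgeR), and by -0.32 without library 9 (adjusted p = 0.196, edgeR).

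*Matn2* encodes matrilin-2, an adaptor of the extracellular matrix. Among mice of 8 weeks it was at 32.3, 26.3 and 31.4 CPM in *WT* mice and at 19.6, 14.7 and 15.4 in *iRhom2-/-* mice. Among those of 10 weeks it was at 28.6, 28.03 and 27.4 in *WT* mice and at 23.6, 13.6 and 15.7 in *iRhom2-/-* mice. Over libraries 7 to 12 the *iRhom2-/-* level ranged from 16.9 to 23.02 CPM (median 19.3). The *WT* libraries 7, 8 and 9 were at 33.4, 32.1 and 36.3 CPM, and *WT* libraries 10, 11 and 12 at 19.8, 26.8 and 24.1. *WT* libraries 10 to 12, those low in immature OSN and connective tissue markers, were all below *WT* libraries 7 to 9 here. The *iRhom2-/-* libraries that differ in those markers overlapped, at 18.8, 16.9 and 22.9 CPM in 7 to 9 and 16.96, 19.7 and 23.02 in 10 to 12. The part of the markers, or of age, was not tested. The overlap of 2 *iRhom2-/-* libraries, 9 and 12, with *WT* came from *WT* library 10. The log2 fold change was -0.54 (SE 0.14) and missed the threshold (adjusted p = 0.123, edgeR). Without *WT* library 10 it was -0.63 (adjusted p = 0.072, edgeR). Of the 12 fits without 1 library, only 1 passed (highest adjusted p = 0.25, edgeR). With DESeq2 over all libraries it passed (adjusted p = 0.0148), but DESeq2 called more genes at large than edgeR did.

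**Figure D2:**
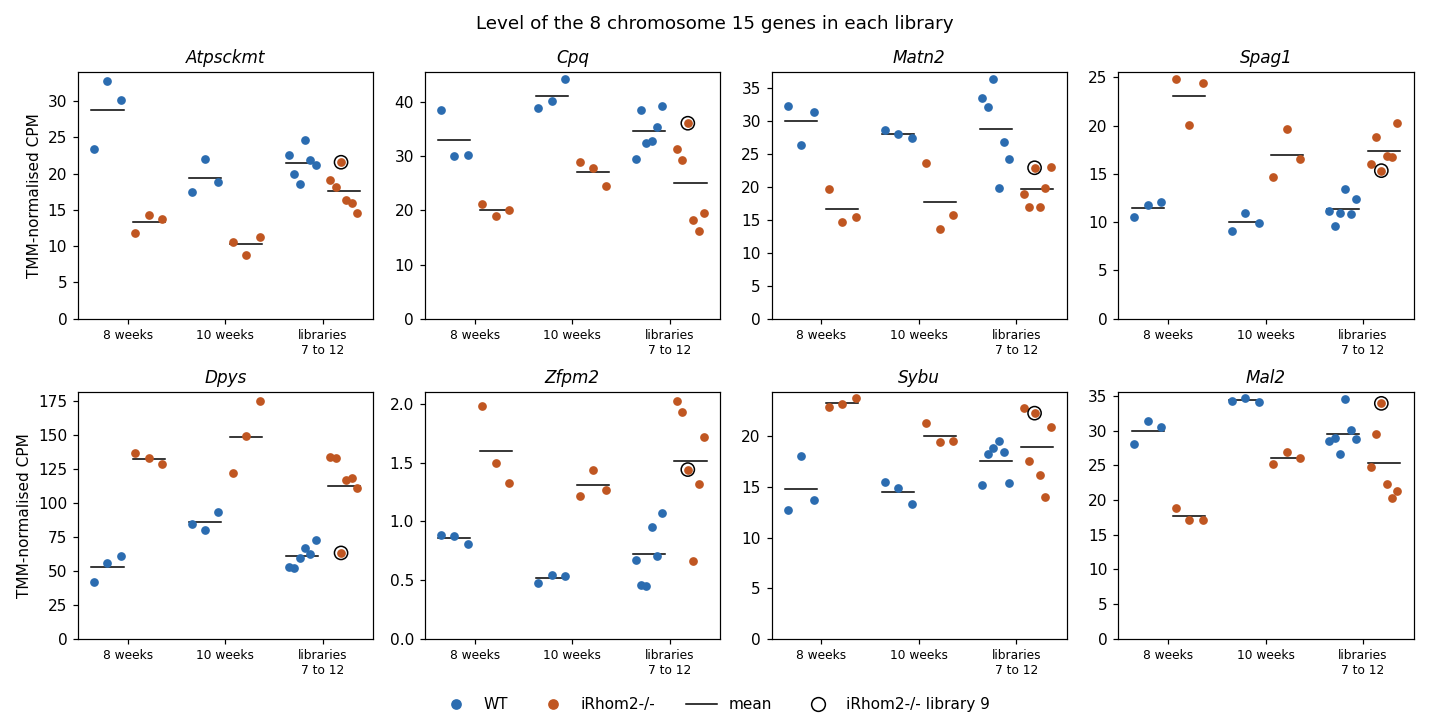
TMM-normalised CPM of the 8 genes (1 panel each) in the mice of 8 and 10 weeks and in libraries 7 to 12, with 1 point per library, *WT* in blue, *iRhom2-/-* in orange and the mean as a bar; library 9 of *iRhom2-/-* is ringed. The genotypes are apart at 8 and 10 weeks in every panel, and in libraries 7 to 12 only *Spag1* keeps them apart, while *Dpys* does so but for the ringed library at 63.2 CPM.

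Whether the levels came in steps was read from the widest gap between neighbouring libraries on the log2 scale. Over libraries 7 to 12 this gap divided the genotypes at 1 of the 8 genes, *Spag1*, where it was narrow (0.19, with the next at 0.18). At *Dpys* it was 0.62, with the next at 0.17, and left 5 *iRhom2-/-* libraries above it and library 9 with the 6 *WT* libraries below it. At *Cpq* it set *iRhom2-/-* libraries 10, 11 and 12 apart from all others, and so it did with CPM from library totals. The widest gap of *Atpsckmt*, of only 0.15, set the same 3 libraries apart with TMM scaling, but with library totals it set only library 12 apart. *Dpys* and *Cpq* therefore each had 2 well separated levels among the *iRhom2-/-* libraries, but with different libraries on each: libraries 7 and 8 were with the other *iRhom2-/-* libraries at *Dpys* and with *WT* at *Cpq*. At *Matn2*, *Zfpm2*, *Sybu* and *Mal2* the widest gap was at most 1.28 times the next and followed neither the division of *Dpys* nor that of *Cpq*. At *Matn2* it set *WT* libraries 7, 8 and 9, those high in immature OSN and connective tissue markers, apart from all others.

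Set against the difference at 8 and 10 weeks, the *iRhom2-/-* libraries 7 to 12 differed in how many genes of the block departed from *WT*. A share of 1 means that a library was as far from the mean of *WT* libraries 7 to 12, on the log2 scale, as *iRhom2-/-* mice were from *WT* mice at 8 and 10 weeks. Since the genes were picked on that difference, it may be too large and the shares too small. Over the 8 genes the median share was 0.225 in library 9, against 0.591 to 0.814 in the other 5. Library 9 was within the *WT* range at 5 genes (*Atpsckmt*, *Cpq*, *Matn2*, *Dpys* and *Mal2*) and beyond it in the direction of 8 and 10 weeks at the other 3. Libraries 7, 8 and 10 were within it at 2 genes each and library 12 at 1. Library 11 was beyond it at all 8, at *Sybu* on the other side. The number of genes beyond the *WT* range thus differed between libraries. This rule depends on the spread of *WT* at each gene, and some values lay at its edge. *Atpsckmt* in library 8 was at 18.22 CPM against a lowest *WT* of 18.52, and *Matn2* in library 11 was at 19.74 against 19.79. Whether the genes departed together was not tested. Of the genes at which library 9 was within the *WT* range, *Dpys* lies between *Spag1* and *Zfpm2*. Library 9 was beyond the range at both, at *Zfpm2* on 42 counts.

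**Figure D3:**
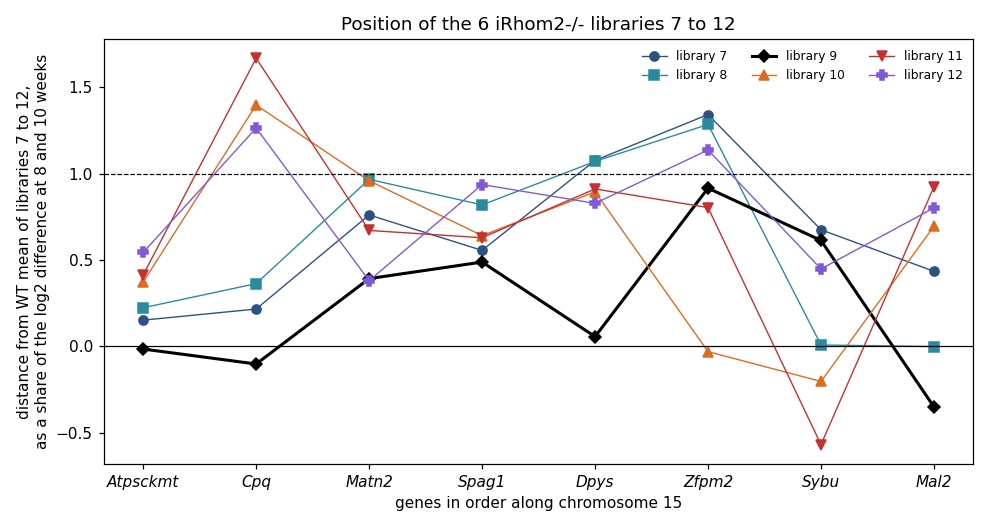
Distance of each *iRhom2-/-* library 7 to 12 from the *WT* mean of those libraries, as a share of the log2 difference at 8 and 10 weeks (0, solid line, is the *WT* mean; 1, dashed line, is the difference at 8 and 10 weeks), for the 8 genes in order along the chromosome. Library 9 (black) lies lowest or next to lowest at most genes, near 0 at *Atpsckmt*, *Cpq* and *Dpys*, and libraries 10, 11 and 12 lie above 1 at *Cpq*.

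Library 9 also differed in markers of cell types. The summed level of 10 markers of ciliated respiratory cells was 662 CPM in library 9, against 404 to 504 in the other *iRhom2-/-* libraries 7 to 12 and 303 to 569 in *WT*. That of the immature OSN markers, at 274 CPM, was the lowest of all 12, next to *WT* libraries 10 to 12 and *iRhom2-/-* libraries 7 and 8. That of 8 leukocyte markers was 649 CPM, against 175 to 335 and 320 to 633, and that of 8 markers of basal and precursor cells was 251, against 206 to 247 and 181 to 245. For mature OSNs, sustentacular cells, glia, connective tissue and erythrocytes it lay within both ranges. The part of these differences in the levels of *Dpys* and the other genes was not tested. *Rhbdf2* in library 9 was at 9.26 CPM, within the range of the other *iRhom2-/-* libraries (7.71 to 12.3).

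No marker of the 9 cell type lists (64 genes) passed the threshold in either set. All 8 leukocyte markers had a lower mean level in *iRhom2-/-* libraries 7 to 12 (median log2 fold change -0.42), with summed levels of 175 to 649 CPM against 320 to 633 in *WT*, and 7 of 8 had so at 8 and 10 weeks (median -0.33). Their part in the levels of the 8 genes was not tested.

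After the mean of each genotype within each set was removed, the levels of the 8 genes were compared across the 24 libraries, with the sign of each gene set by its difference at 8 and 10 weeks. Of 28 pairs, 16 had a correlation above 0, with a median of 0.072. In absolute value the median was 0.271, against 0.232 over all pairs of 18416 genes, so as a set the 8 genes varied together little more than genes at large. The pairs of *Matn2*, *Spag1*, *Dpys* and *Zfpm2*, which follow each other in the middle of the block, had signed Pearson's r from 0.258 to 0.54, a run that was singled out after its values were seen. Other close pairs lay on both sides of 0. Signed r was 0.28 for *Atpsckmt* and *Cpq*, 0.229 for *Cpq* and *Spag1* and 0.08 for *Cpq* and *Matn2*. It was -0.257 for *Atpsckmt* and *Matn2* and -0.2 for *Dpys* and *Sybu*. *Cpq* and *Mal2*, which are 21.5 Mb apart and at opposite ends, had the highest r of all pairs (0.688, Spearman's rho 0.41), and *Atpsckmt* and *Mal2* came next (0.615, rho 0.49). Signed r of *Sybu* with *Mal2*, *Cpq* and *Atpsckmt* was below 0 (-0.452, -0.424 and -0.396): within a genotype these genes were high in the same libraries, while their genotype differences at 8 and 10 weeks were opposite. The libraries share depth and tissue composition, including the marker levels that divide libraries 7 to 12. The ages mixed among libraries 7 to 12 were not removed either, so these correlations are given as a description.

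The block holds other genes too, and how many of them passed was compared with the genome. GENCODE places 164 other genes with counts between 31 and 55 Mb of chromosome 15, of which 71 were tested in libraries 7 to 12. Of these, 6 passed the threshold (8.45%, against 1.07% of all genes and 1.16% of 602 genes elsewhere on chromosome 15), all 6 lower in *iRhom2-/-*. They were *Snhg18*, *Rpl30*, *Rpl15-ps6*, *Polr2k*, *Med30* and *Atp6v1c1*, and the count fell to 2 without *iRhom2-/-* library 7, 10, 11 or 12. At 8 and 10 weeks 4 of 72 passed (5.56%, against 0.529% of all genes; these mice also set the bounds of the block). *Rpl30* and *Polr2k* passed in both sets. Over both sets, 47 of 71 neighbours had the same sign. The share of all genes with the same sign is not given here, so nothing is read from this count. With bounds of 25 and 60 Mb, 9 of 114 neighbours passed in libraries 7 to 12.

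*Rpl30*, which encodes a protein of the large ribosomal subunit, starts 4232 bases beyond *Matn2*. It was at 236 to 331 CPM in *WT* libraries 7 to 12 and at 158 to 228 in *iRhom2-/-* libraries, without overlap, and library 9 was again the highest of the latter. Its log2 fold change was -0.59 (SE 0.10, adjusted p = 0.0372, edgeR), and it was -0.75 at 8 and 10 weeks. *Polr2k*, a subunit shared by the RNA polymerases, ends 1089 bases before *Spag1*. It was at 27.4 to 49.2 CPM in *WT* and 15.99 to 25.96 in *iRhom2-/-* libraries 7 to 12, a log2 fold change of -0.77 (SE 0.16, adjusted p = 0.0651, edgeR), opposite in direction to *Spag1* beside it. *Snhg18* was at 14.6 to 22.8 CPM in *WT* and 9.74 to 13.1 in *iRhom2-/-* libraries (log2 fold change -0.76, SE 0.13, adjusted p = 0.0328, edgeR). At these 3 genes, unlike at *Cpq* and *Atpsckmt*, *iRhom2-/-* libraries 7 to 9 were below all *WT* libraries as well.

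*Med30*, a Mediator subunit, was at 18.9 to 26.4 CPM in *WT* and at 15.2 to 18.2 in *iRhom2-/-* libraries 7 to 12 (log2 fold change -0.40, SE 0.09, adjusted p = 0.0806, edgeR), and at 8 and 10 weeks its log2 fold change was -0.09 (adjusted p = 0.76, edgeR). *Rpl15-ps6*, a processed pseudogene of a ribosomal protein gene, had 2 levels far apart, and both occurred within *WT*. It was at 49.6, 42.4 and 43.6 CPM in *WT* libraries 10, 11 and 12 and at 1.51, 0.877 and 1.66 in *WT* libraries 7, 8 and 9. At 8 weeks it was at 32.8 and 37.3 CPM in *WT* mice 1 and 2 and at 1.32 in *WT* mouse 3, and the *WT* mice of 10 weeks were at 0.413 to 1.14. None of the 12 *iRhom2-/-* libraries exceeded 1.44 CPM. Its genotype call in libraries 7 to 12 (log2 fold change -5.21, adjusted p = 0.063, edgeR) thus rests on 3 *WT* libraries. These are the *WT* libraries low in immature OSN and connective tissue markers, and the part of the markers or of age was not tested. A processed pseudogene can share reads with its parent gene, so the level of *Rpl15-ps6* is uncertain.

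Among the neighbours with the smallest p in the other direction, *A930017M01Rik*, *Rrm2b*, *Vps13b* and *Ccn3* did not pass (adjusted p from 0.186 to 0.296, edgeR). *Ccn3*, a matricellular protein gene next to *Mal2*, was at 44.7, 46.1 and 42.4 CPM in *iRhom2-/-* libraries 10, 11 and 12 and at 26.9, 23.6 and 31.9 in libraries 7, 8 and 9, against 19.7 to 31.6 in *WT*. *WT* libraries were divided as well, at 30.5 to 31.6 CPM in 7 to 9 and 19.7 to 23.5 in 10 to 12. In each genotype the 3 libraries high in immature OSN and connective tissue markers were the 3 highest at *Ccn3*. The part of the markers, or of age, was not tested.

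**Figure D4:**
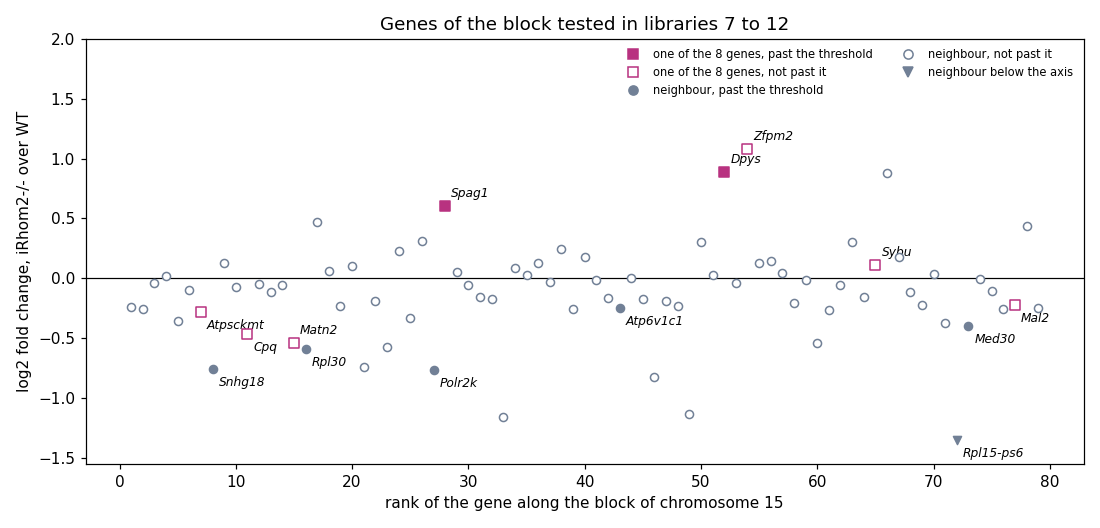
Log2 fold change between genotypes in libraries 7 to 12 for the 8 genes (squares) and the 71 tested neighbours (circles), in order along the block; filled symbols passed the threshold and a triangle marks *Rpl15-ps6*, which lies below the axis at -5.21. Of the neighbours past the threshold all 6 are lower, and of the 8 genes *Spag1* and *Dpys* are past it and higher.

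The genes whose levels over the 24 libraries were most like the mean of the 8 (each gene standardised and signed by its difference at 8 and 10 weeks) were mostly on other chromosomes. Of the 10 with the highest absolute Pearson's r, 2 were on chromosome 15, *Nudcd1* within the block (r = -0.84) and *4930556M19Rik* outside it (-0.813). A further 5 were on chromosome 2, namely *Slc2a10* (-0.851), *Sox12* (0.848), *Zbtb46* (0.826), *Uckl1os* (0.82) and *Ahcy* (-0.806). The others were *Gm4202* on chromosome 3 (0.853), *A230056P14Rik* on chromosome 7 (-0.831) and *Rhbdf2* itself (-0.804). As the score differs between genotypes by the choice of genes, any gene that differs between genotypes ranks high, and *Rhbdf2* gives the scale of that.

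Several of these genes differed widely among the *iRhom2-/-* libraries, in some through a single library, and not along the same division. *Ahcy*, which encodes S-adenosylhomocysteine hydrolase, was at 34.9 to 45.01 CPM in all 12 *WT* libraries. In *iRhom2-/-* it was at 39.1 and 37.6 CPM in libraries 7 and 8, at 14.99, 19.1 and 14.6 in libraries 9, 10 and 12, and at 4.23 in library 11. Libraries 7 and 8 were thus at the *WT* level of *Ahcy* and beyond the *WT* range of *Dpys*, and library 9 the reverse. *Gm4202*, a processed pseudogene, was at 35.4, 32.8 and 30.4 CPM in *iRhom2-/-* libraries 10, 11 and 12. It was at 12.99, 15.9 and 7.51 in libraries 7, 8 and 9, against 4.63 to 11.1 in *WT* libraries 7 to 12. In *iRhom2-/-* this is the division by immature OSN and connective tissue markers. The *WT* libraries that differ in those markers overlapped, at 7.60, 4.63 and 7.28 CPM in 7 to 9 and 6.44, 9.38 and 11.1 in 10 to 12. The part of the markers or of age was not tested. *4930556M19Rik*, an RNA gene that starts at 10714836 of chromosome 15, was at 5.49 CPM in *iRhom2-/-* library 9, above all 12 *WT* libraries (3.28 to 5.08), and at 1.37 to 2.995 in the other 5.

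Genes that work with the 8 were looked up in 8 lists of 85 partner or family genes, 4 of them on chromosome 15. In libraries 7 to 12, 79 were tested, 0 passed as higher (0.649% of all genes did) and 1 as lower (0.422% of all genes), *Mall*, a relative of *Mal2* (log2 fold change -1.06, SE 0.23, adjusted p = 0.0714, edgeR), and 15 had an unadjusted p under 0.05, against 14.2% of all genes. At 8 and 10 weeks 0 of 82 passed with edgeR, and 8 had an unadjusted p under 0.05, against 11.2% of all genes. The median absolute log2 fold change over the partners was 0.111 in libraries 7 to 12, against 0.132 over all genes tested and 0.505 over the 8 genes. The partners of *Spag1* in dynein arm assembly had a median log2 fold change of -0.02 over 16 genes, the smallest p being that of *Dnaaf5* (0.23, adjusted p = 0.154, edgeR). The 13 genes set beside *Atpsckmt* were those of ATP synthase subunits and another methyltransferase gene. Of these, 13 had a lower mean in *iRhom2-/-* libraries 7 to 12 (median -0.21) and 12 a higher mean at 8 and 10 weeks (median 0.07). *Atp5e* had the smallest p in libraries 7 to 12 (-0.58, adjusted p = 0.132, edgeR).

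In the lists with no gene past the threshold, the 2 genes with the smallest p in libraries 7 to 12 had adjusted p-values of 0.132 to 0.811 (edgeR). Among partners of *Spag1* the other was *Ruvbl1* (log2 fold change -0.21), and among the ATP synthase genes it was *Atp5pb* (-0.30). They were *Dpysl4* (0.15) and *Dpysl2* (0.09) among pathway partners and relatives of *Dpys*, *Nr2f2* (-0.19) and *Gata1* (-0.69) among partners of *Zfpm2*, and *Kif5a* (0.27) and *Trak1* (0.11) among partners of *Sybu*. Among the 6 tested M28 peptidases beside *Cpq* they were *Ermp1* (0.17) and *Tfrc* (-0.13), and among the 6 tested matrix genes beside *Matn2* they were *Lamb1* (0.20) and *Nid2* (0.11).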

How the data were processed

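The authors aligned bulk RNAseq reads of the OE with STAR to GRCm38 and estimated gene counts with RSEM (the submitters' processing notes name RSEM, edgeR and GRCm38). The deposited estimated counts are whole numbers that were not normalized (45706 genes, 24 libraries), and stand beside the authors' own fold changes and p-values, which were not used. The columns of 12 libraries match 1 mouse each. The names of the other 12 give only the genotype, so they were used as replicates of it (0 columns were left unused). By elimination they share 1 core reference number, so they are compared within it, but 2 ages are mixed among them and could not be fitted. That samples came from separate mice is read from the labels; p-values measure the spread between these samples. No library was a duplicate (42 pairs within groups, lowest chi-square 12.8 per degree of freedom).

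Genotypes were compared with edgeR 4.0.16 under R 4.3.3 (filterByExpr, TMM, quasi-likelihood test; Benjamini-Hochberg over all genes tested, threshold 0.1). At 8 and 10 weeks age was a term. TMM factors for CPM were set over all 24 libraries. Gene positions are from GENCODE for GRCm38, promoter sequences from RefSeq for GRCm38.p6. In data simulated for libraries 7 to 12, the test called 143 of 197 genes changed 2-fold and 11 others, 92 of 199 genes changed 1.5-fold, and 0 genes where none was changed.

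The 8 genes, the lists and the bounds of the block were chosen with earlier results of these data known, in which all 24 columns had also been fitted together, so libraries 7 to 12 are not fully independent of how the block was first noticed. Genes given by name are the 8, *Rhbdf2*, the 5 neighbours with the smallest p in each direction in libraries 7 to 12, the 10 genes most like the 8, and partner genes past the threshold or else the 2 with the smallest p in a list. *Bpifb9b* and *Atp6v1c1* were chosen after their values were seen. A gene that the rule names is not reported here. Alternatives were DESeq2 1.42.0, the likelihood ratio test, RLE scaling, no filter, a minimum of 10 counts in every library, a threshold of 0.05, wider bounds, the replicate number as a block, no age term, mice labelled male alone, and fits without each library in turn.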

Additional observations from a re-analysis of the deposited data

Results flagged for a closer look

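In groups of 6 libraries, 36 sets of values (the 8 genes and *Rhbdf2* in each genotype and set) were searched for a library far from the rest of its group, and 3 stood out; chance gives about 1 in 20. *Dpys* was at 63.2 CPM in *iRhom2-/-* library 9, against 111 to 134 in the other 5. *Zfpm2* was at 1.98 CPM in *iRhom2-/-* mouse 1 of 8 weeks, against 1.22 to 1.5 in the other 5 *iRhom2-/-* mice of 8 and 10 weeks, a level that rests on 95 counts. *Rhbdf2* was at 23.9 CPM in *WT* mouse 2 of 8 weeks, against 20.4 to 21.2 in the other 5 *WT* mice of those ages.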

How the results depend on the processing

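Of 424 fold changes of the 8 genes under alternatives, none reversed. In libraries 7 to 12, DESeq2 called 532 genes higher and 384 lower, with 4 of the 8 genes, and the likelihood ratio test 129 lower, also with 4 of the 8. No filter on low counts left 70 and 49, and a threshold of 0.05 left 29 and 22, with 2 neighbours of the block. Without 1 library, the counts were 27 to 138 higher (lowest without *iRhom2-/-* library 11) and 24 to 103 lower (lowest without *iRhom2-/-* library 12), with 2 to 3 of the 8 genes and 2 to 6 neighbours.

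At 8 and 10 weeks, DESeq2 called 320 higher and 290 lower, with 15 neighbours, the likelihood ratio test 172 and 114, with 11 neighbours, and a threshold of 0.05 18 and 17, with 1 neighbour. Without an age term there were 5 and 5, with 3 of the 8 genes and 0 neighbours, and in mice labelled male 9 and 8, with 5 of the 8 and 0 neighbours. Without 1 mouse there were 12 to 88 higher (lowest without *iRhom2-/-* mouse 1 of 8 weeks) and 11 to 57 lower, with 5 to 8 of the 8 (5 without *WT* mouse 3 of 8 weeks) and 1 to 6 neighbours. With the replicate number as a block within ages, 26 and 15 genes passed, with 2 neighbours and 7 of the 8; only 3 of 6 same-numbered pairs deviated together (r above 0.1; range -0.0023 to 0.23), so the numbers do not pair the mice. The cause of these changes was not tested, but fewer samples or a stricter threshold enter several of them. At this depth and number of libraries, genes as low as *Zfpm2* are limited by counting error.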
